A study of Mus musculus with 16 samples.

Results

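The serpin genes were taken as all protein-coding entries of the deposited table whose symbol is Serpin followed by a clade letter from a to i, a number and at most 1 further letter. They numbered 62 of 55421 genes. A filter on low values, a normalized count of at least 10 in at least 4 libraries, was passed by 28 of the 62 and by 15239 genes in all. The RNA came from mouse oval cells, the progenitor cells of the liver, of the genotypes Ptpn1+/+ (WT) and Ptpn1-/- (KO). The product of Ptpn1 is PTP1B, a tyrosine phosphatase that turns off the insulin receptor. Cells of each genotype were controls or had received 400 µM palmitic acid, a saturated fatty acid, for 8 h, and each of the 4 groups had 4 libraries. Cells were grown with 10% serum and treated in medium with 5% serum and 1% BSA. The medium of the controls is not stated, so an effect of palmitate and one of the medium cannot be told apart here. The number of cell lines per genotype is not in the labels, and genotype and line cannot be told apart. Nor do the labels tell whether a group's libraries are separate cultures, and p-values here measure a spread between libraries that may be technical.

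Serpins share a fold with an exposed reactive loop. Most of them inhibit a protease that cuts this loop and is trapped by it. In the liver, hepatocytes secrete many clade A serpins, heparin cofactor II and alpha-2-antiplasmin into plasma, where they restrain elastase, coagulation enzymes and plasmin. Clade B serpins stay mostly inside cells and guard against leaked lysosomal and granule proteases, and a few serpins, such as the collagen chaperone HSP47, inhibit no protease.

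The mouse has several near-identical copies of the alpha-1-antitrypsin gene, and 1 of them, Serpina1e, moved against the other 4 measured here, so the stretch they share near their start is shown first. Each line gives 90 bases from RefSeq's promoter table (build GRCm38.p6), 5′ to 3′ on the minus strand. Capitals mark GTTAAT, a half-site of the hepatic transcription factor HNF1.
Serpina1a (chr12:103863615-103863704): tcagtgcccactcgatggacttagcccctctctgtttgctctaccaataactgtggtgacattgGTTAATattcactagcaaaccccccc
Serpina1b (chr12:103738190-103738279): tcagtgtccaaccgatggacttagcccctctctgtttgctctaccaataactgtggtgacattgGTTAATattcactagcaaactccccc
Serpina1c (chr12:103904952-103905041): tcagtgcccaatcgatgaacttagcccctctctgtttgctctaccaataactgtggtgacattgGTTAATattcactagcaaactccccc
Serpina1d (chr12:103773624-103773713): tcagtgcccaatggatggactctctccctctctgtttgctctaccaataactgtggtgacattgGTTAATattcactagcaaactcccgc
Serpina1e (chr12:103956950-103957039): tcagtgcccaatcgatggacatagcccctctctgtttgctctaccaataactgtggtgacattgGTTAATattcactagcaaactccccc
Substitutions against Serpina1e were counted from 1 at the 5′ end of the stretch, with the base of Serpina1e first. Serpina1a differed by A11C, A21T and T85C, and Serpina1b by C7T, T12C and A21T. Serpina1c differed by G18A and A21T. Serpina1d differed by C13G, A21T, T22C, A23T, G24C, C25T and C89G, so A21T was in all 4 of the other copies. The capitals began 16 to 27 bases before the annotated start of Serpina1a, Serpina1b, Serpina1c and Serpina1d and 78 bases before that of Serpina1e, where RefSeq places the start further downstream. The GENCODE vM21 annotation, used below for coordinates, has 5′ gene ends upstream of the stretch for Serpina1e (103958975) and Serpina1b (103830373).

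GTTAAT, searched on both strands, stood in 7.1% of the 32851 promoter windows of 300 bases (250 before to 50 after a start) and in 11 of the 53 serpins with a window. These serpins had 62 windows, and a serpin was counted if any of its windows held the motif, so this count is not per window. Of the 10 serpins with a window that were higher in KO control cells it stood in 5, the copies Serpina1a to Serpina1d and Serpina7. Of the 8 that were lower it stood in 1, Serpina1e. A second motif, GGGCGG, is bound by Sp1-type factors and is common in promoters of genes used in many tissues. It stood in 35.66% of all windows and, counted by gene, in 8 of the 53 serpins. Of the 10 higher in KO control cells it stood in 2, and of the 8 lower it stood in 2 as well. It is shown in capitals for a pair of serpins of the secretory pathway that differed in opposite directions, in the 250 bases before their starts on the minus strand.
Serpinh1, lower in KO (chr7:99353240-99353489): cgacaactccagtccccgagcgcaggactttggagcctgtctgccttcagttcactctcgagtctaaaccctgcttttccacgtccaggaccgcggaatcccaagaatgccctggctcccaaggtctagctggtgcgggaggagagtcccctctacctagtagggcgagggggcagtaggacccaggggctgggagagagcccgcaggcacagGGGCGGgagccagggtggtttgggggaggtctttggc
Serpine2, higher in KO (chr1:79858666-79858915): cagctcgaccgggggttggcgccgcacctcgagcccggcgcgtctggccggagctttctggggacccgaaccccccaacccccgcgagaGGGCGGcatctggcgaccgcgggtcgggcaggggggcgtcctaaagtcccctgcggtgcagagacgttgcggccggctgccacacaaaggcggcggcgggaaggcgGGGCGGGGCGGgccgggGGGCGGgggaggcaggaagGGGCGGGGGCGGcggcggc
Such a match describes letters only and names no bound factor. For Serpine2 too, the 5′ gene end in GENCODE vM21, at 79861180, lies upstream of the stretch. Serpina10, Serpina3k, Serpina3m, Serpina6, Serpina9, Serpinb13, Serpinb1a and Serping1 are among those with no entry in the promoter table.

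Libraries held 21553952 to 35693442 gene reads, where reads are whole numbers recovered from the normalized counts. Ptpn1 itself stood at 1936.5 ± 39 normalized counts in WT control and 329.5 ± 16 in KO control libraries (SD, n = 4 each), with no overlap, as the genotype labels state. The labelled cell type was checked on 12 progenitor and cholangiocyte markers. Of the 11 tested members, 10 were higher in KO control cells and 1 was lower. Added up over all 12, KO controls held 300950 to 308416 normalized counts per library, against 152161 to 163867 for WT controls. Krt19, Sox9 and Spp1 were present in every group, at means of 3407, 342 and 84275 in WT control and 4545, 1861 and 184089 in KO control libraries, while Epcam was listed at 0 in WT control libraries and at a mean of 1.77 in KO control libraries. The summed level of 12 hepatocyte markers was 2292 to 2802 over the WT libraries and 44053 to 55096 over the KO libraries, with 6 of the 7 tested members higher in KO control cells. Of the 12, 7 had a mean below 10 in each WT group and 5 in each KO group, so the sum rests on the others. Afp had means of 37.2 in WT control and 188 in KO control libraries. For 12 stellate cell and fibroblast markers the sum was 130090 to 159150 in WT and 2690 to 3786 in KO libraries. Here 9 of 9 tested members were lower in KO control cells, while the defining markers Lrat and Thy1 were at or near 0 in all groups. Over 10 macrophage and leukocyte markers the sum was 1614 to 2055 in WT and 2720 to 3375 in KO libraries. Adgre1, Clec4f, Cd3e and Ms4a1 were at 0. Most of the sum was Cd14, at means of 980 in WT control and 2061 in KO control libraries. Of 4 tested members, 3 were higher in KO control cells, and Ptprc was not called but was lower after palmitate. Over 8 endothelial markers the sum was 854 to 950 in WT and 94.8 to 115 in KO libraries. Most of it was Eng, at means of 845 in WT control and 69.8 in KO control libraries. Of 4 tested, Eng and Cdh5 were lower in KO control cells, Stab2 was higher and Vwf was not called. Among all tested genes, 37.8% were higher and 39.3% lower. The part of these marker levels in the serpin results was not tested. In bulk RNA, fewer cells of a type and less RNA per cell cannot be told apart.

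Of the 28 serpins that passed the filter, 20 reached a mean of at least 50 normalized counts in some group and 8 did not. A further 22 had some reads but stayed below the filter, among them Serpinc1 (antithrombin), Serpina6 (corticosteroid-binding globulin) and Serpina5 (protein C inhibitor). The remaining 12 had no read in 440297018 gene reads over the 16 libraries, which allows a level of up to 3 reads over the 16 libraries, a limit for counting error only. These were Serpina1f, Serpina3j, Serpina3k, Serpinb3a to Serpinb3d, Serpinb6d, Serpinb6e, Serpinb12, Serpinb13 and Serpine3. Clade A had 24 members, of which 10 passed, and clade B had 27, of which 10 passed.

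The first comparison asked how serpin mRNA differs between untreated KO and WT cells. Copies of alpha-1-antitrypsin, heparin cofactor II (Serpind1) and alpha-2-antiplasmin (Serpinf2) were higher in KO cells, and HSP47 (Serpinh1), pigment epithelium-derived factor (Serpinf1) and the elastase inhibitor Serpinb1a were lower, each by more than 2-fold. In all, 12 of the 28 tested serpins were higher and 10 lower, where 37.8% and 39.3% of all tested genes were. The 22 called are 78.6% of the 28, close to the 77.1% of all tested genes that were called, and 21 of the 28 had groups that did not overlap, against 71.4% of all genes. Of the 28, 17 were called with a change of at least 2-fold, 11 higher and 6 lower, where 22.2% of all genes were. The median absolute log2 fold change over the 28 was 1.59, against 0.40 over all tested genes. A serpin present in 1 genotype only passes the filter through that genotype, so these counts describe the tested members and not the family. Calls rest on limma at an adjusted p under 0.05 (Benjamini-Hochberg over all 15239 genes), fold changes are on the log2(value + 1) scale with their SE, and levels are normalized counts given as mean ± SD of 4 libraries.

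**Figure D1:**
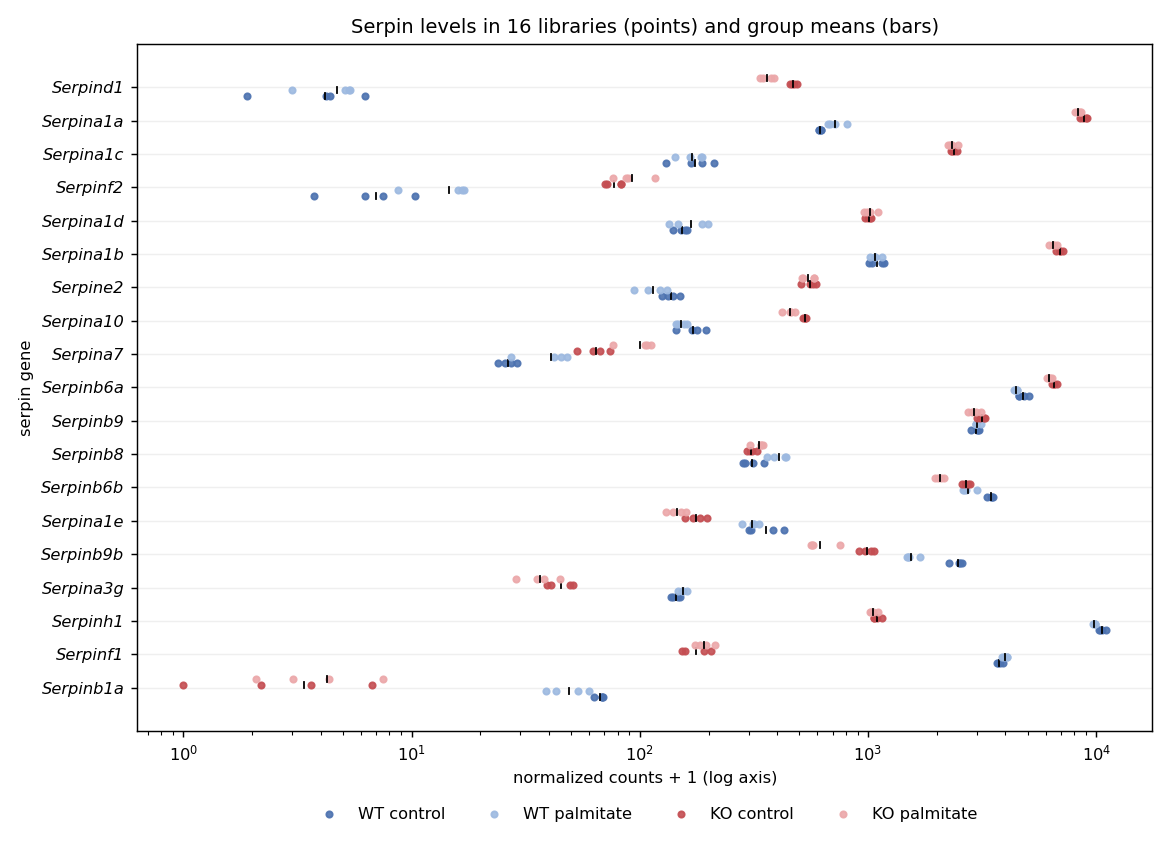
Normalized counts plus 1 on a log axis for 19 of the 20 serpins with a group mean of at least 50, ordered by the KO against WT difference in control cells. Each point is 1 of the 16 libraries, coloured by group, and each black bar is a group mean; Serpind1 at the top lies between 0.91 and 5.23 in WT control and between 455 and 489 in KO control libraries.

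The composition of serpin mRNA was thus different in the 2 genotypes. Per kb of exonic length, so that genes can be compared, the summed serpin level was 11955 ± 494 normalized counts per kb in WT control and 15289 ± 408 in KO control libraries. Serpina1a to Serpina1e made up 10.4% ± 0.274 of it in WT and 67.1% ± 0.109 in KO control libraries. Serpinh1 made up 36.2% ± 0.552 and 2.92% ± 0.0659, and Serpinf1 13.3% ± 0.219 and 0.486% ± 0.0708. In WT control cells the order of levels per kb was led by Serpinh1 at 4326, followed by Serpinf1 at 1595 and Serpinb6b at 1528, a pair whose libraries overlapped. Clade B serpins held 34.5% ± 0.721 of the summed level in WT and 24.2% ± 0.138 in KO control libraries. The summed level was higher in KO control libraries, so a lower share is not in itself an equally lower level.

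Alpha-1-antitrypsin inhibits neutrophil elastase and is the most abundant serpin of plasma. Serpina1a (ENSMUSG00000066366.14) read 621, 622, 607 and 608 normalized counts in the WT control libraries and 8985, 8777, 9118 and 8453 in the KO control libraries. Serpina1b (ENSMUSG00000071178.11) read 1179, 1040.2, 1148 and 1006 in WT and 6956, 6925, 7123 and 6689 in KO control libraries. Every KO library lay far above every WT library for both. Their log2 fold changes were 3.84 ± 0.04 (limma, adjusted p 9.4e-31) and 2.66 ± 0.04 (adjusted p 7.9e-25). Serpina1c rose from 173 ± 34.4 in WT to 2372 ± 55.2 in KO control libraries (log2 fold change 3.79 ± 0.12), and Serpina1d from 152 ± 9.14 to 1005 ± 26.7 (2.72 ± 0.09).

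Serpina1e (ENSMUSG00000072849.10) went the other way. It read 429, 383, 305 and 301 in WT control libraries and 195, 170.1, 182 and 157 in KO control libraries, again without overlap. The log2 fold change was -0.99 ± 0.10 (limma, adjusted p 7.8e-10), and it was -1.10 ± 0.10 (adjusted p 1.1e-10) after palmitate. Its share of the summed counts of the 5 copies was 14.8% ± 1.8 in WT control and 0.911% ± 0.0654 in KO control libraries. The copies are 89.2% to 94.7% identical in protein sequence between pairs, and 48.98% of the 76-base windows of Serpina1a, 18.65% of Serpina1b, 73.33% of Serpina1c, 36.62% of Serpina1d and 19.33% of Serpina1e also occur in transcripts of another gene. Reads could have been split among them, so the value of each copy is uncertain and the sum is safer. The sum was 2387 ± 152 in WT control and 19310.0 ± 528 in KO control libraries, 8.10-fold higher (two-sided exact permutation test, p 0.0286, which is the lowest p that 70 assignments can give).

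**Figure D2:**
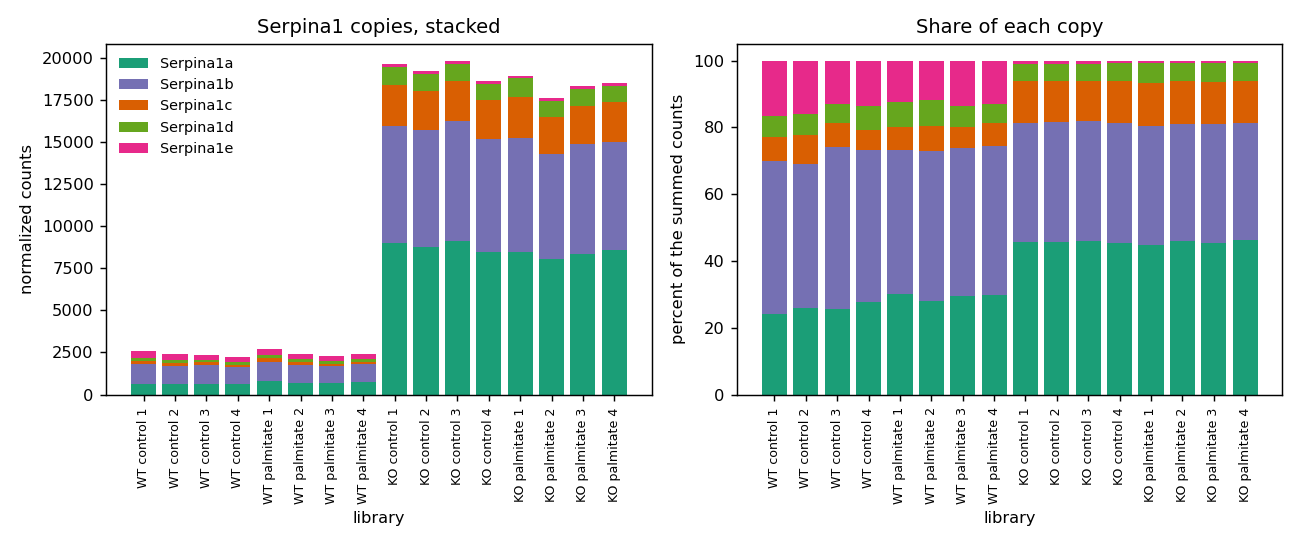
Left, stacked normalized counts of the 5 Serpina1 copies in each of the 16 libraries; right, the percent of their sum held by each copy. The KO libraries sum to 17577 to 19812 and the WT libraries to 2203 to 2673, and the share of Serpina1e, uppermost, falls from 14.8% in WT control to 0.911% in KO control libraries.

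Further secreted inhibitors of coagulation and fibrinolysis were higher in KO cells. Serpind1 (ENSMUSG00000022766.14), heparin cofactor II, inhibits thrombin when bound to glycosaminoglycans. It read 3.41, 0.91, 5.23 and 3.23 in WT control libraries, 13 reads in all, and 489, 462, 455 and 475 in KO control libraries. The log2 fold change of 6.93 ± 0.25 (limma, adjusted p 6.1e-18) was the largest among the tested serpins. Serpinf2, the main plasma inhibitor of plasmin, read 9.39, 2.73, 5.23 and 6.47 in WT and 81.3, 70.5, 69.4 and 81.7 in KO control libraries, a log2 fold change of 3.55 ± 0.25 (adjusted p 3.6e-13). Both were close to absent from WT cells. Serpina10, which inhibits factor Xa with the cofactor protein Z, was 171 ± 21.2 in WT and 527 ± 5.69 in KO control libraries (1.63 ± 0.07), and Serpina7, the thyroxine carrier of plasma, 25.5 ± 2.15 and 63.2 ± 8.71 (1.27 ± 0.17). Serpine2 (protease nexin-1), a cell-surface inhibitor of thrombin and urokinase, was 135 ± 10.4 and 557 ± 35.6 (2.03 ± 0.09).

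Serpinh1 (ENSMUSG00000070436.12) encodes HSP47, the procollagen chaperone of the endoplasmic reticulum. It read 11063, 10617, 10349 and 10248 in WT control libraries and 1089, 1063, 1151 and 1057 in KO control libraries. Every KO library lay far below every WT library, and the log2 fold change was -3.28 ± 0.03 (limma, adjusted p 2.1e-33). Among its clients and partner enzymes, 15 of 18 tested genes were lower in KO control cells and 2 were higher, where 39.3% and 37.8% of all tested genes were. Their median log2 fold change was -1.005, against -0.01 over all tested genes. Col3a1 and Col1a2, chains of fibrillar collagens, differed by -6.67 ± 0.09 and -5.76 ± 0.09, while Col4a1, a basement membrane collagen that HSP47 also binds, was higher by 0.12 ± 0.03. P4hb, a subunit of prolyl 4-hydroxylase, was higher by 0.10 ± 0.02.

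Serpinf1 (ENSMUSG00000000753.15) encodes pigment epithelium-derived factor, a secreted serpin that limits vessel growth and inhibits no protease. It read 3888, 3793, 3709 and 3656 in WT control libraries and 156, 152, 203 and 190.0 in KO control libraries, a log2 fold change of -4.43 ± 0.08 (limma, adjusted p 1.0e-19). The gene lies beside Serpinf2 on chromosome 11 (GRCm38, the pair spanning 75409769 to 75439591, 29.8 kb), and the neighbours thus differed in opposite directions.

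**Figure D3:**
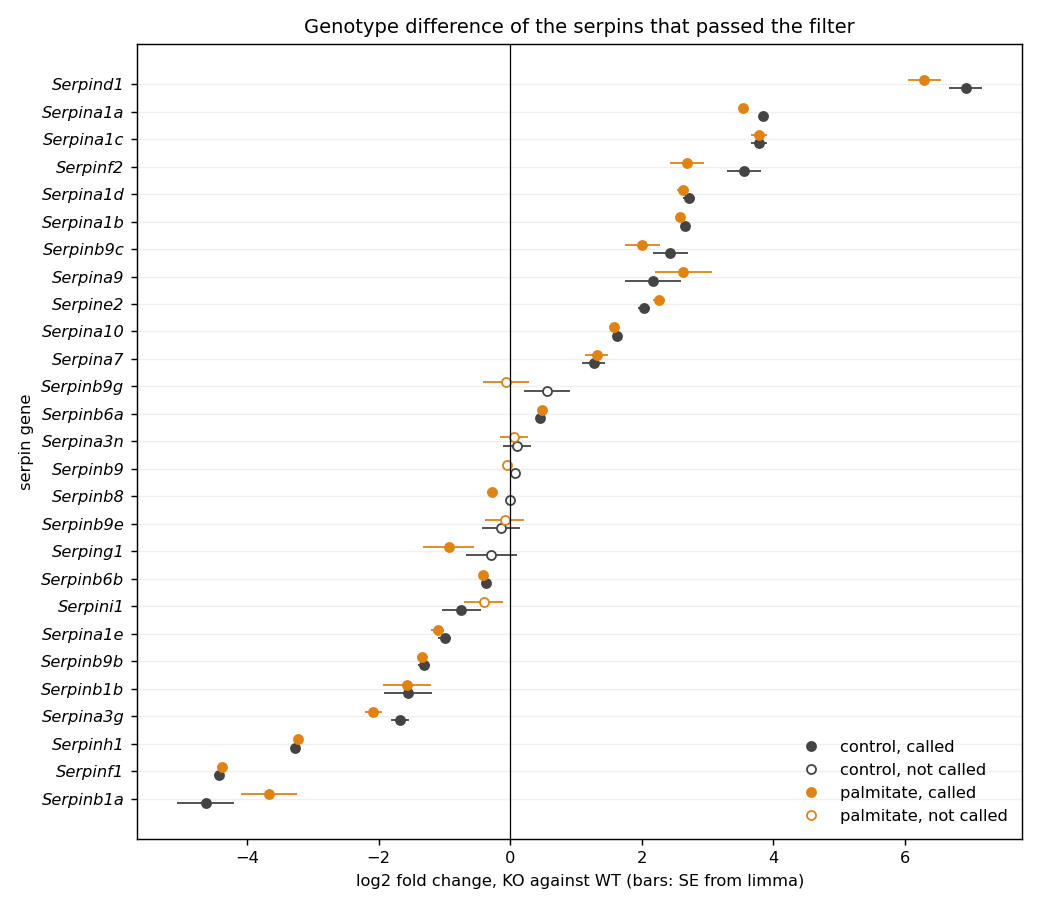
Log2 fold change of KO against WT with its SE from limma for 27 of the 28 serpins that passed the filter, in control cells (grey) and after palmitate (orange); filled points were called at an adjusted p under 0.05. Values run from -4.63 for Serpinb1a to 6.93 for Serpind1 in control cells.

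Of the 10 clade B serpins that passed the filter, 2 were higher and 4 lower in KO control cells and 4 were not called, where 37.8% of all tested genes were higher and 39.3% lower. The mouse homologues of human SERPINB6, which inhibits cathepsin G, differed in direction: Serpinb6a was 4769.7 ± 223 in WT and 6545 ± 132 in KO control libraries (log2 fold change 0.46 ± 0.03), and Serpinb6b 3457 ± 101 and 2687 ± 95.4 (-0.36 ± 0.04). The granzyme B inhibitor Serpinb9 was 2982 ± 100 and 3142 ± 106 and was not called (limma, adjusted p 0.055). Serpinb9b, a mouse paralogue of it, read 2575, 2491, 2538 and 2261 in WT and 1029.7, 1066, 968 and 909 in KO control libraries, a difference of -1.31 ± 0.09. Serpinb8, whose human counterpart inhibits furin, was 308 ± 30.2 and 308 ± 12.3 in control libraries, with a log2 difference of 0.00 ± 0.07. Serpinb1a, an inhibitor of neutrophil elastase and cathepsin G, was 66.1 ± 2.94 in WT and 2.38 ± 2.46 in KO control libraries (-4.63 ± 0.43), where it rested on 9 reads in the KO group, and with a pseudocount of 8 the difference was -2.86. Serpina3g, a clade A serpin that acts inside cells on cysteine cathepsins, was 142 ± 6.48 and 44.1 ± 5.89 (-1.68 ± 0.13). Serpinb6a overlaps exons of Nqo2 and Ripk1 on the other strand, Serpinb9b those of Gm36099, and Serpina1c those of B430119L08Rik. Strand use in the authors' counting is not given in the sources used here, so these overlaps leave their values uncertain.

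The 8 tested serpins that stayed under a mean of 50 were Serpina3n, Serpina9, Serpinb1b, Serpinb9c, Serpinb9e, Serpinb9g, Serping1 and Serpini1. Serpinb9c was 8.04 ± 2.14 in WT and 47.4 ± 8.4 in KO control libraries (log2 fold change 2.44 ± 0.27), and Serpina9 was 1.47 ± 0.622 and 10 ± 1.92 (2.17 ± 0.43). Serpinb1b was 12.6 ± 5.58 and 3.47 ± 1.36 (-1.56 ± 0.37), and Serpini1 (neuroserpin) 18.5 ± 3.03 and 11.9 ± 6.99 (-0.74 ± 0.30). The call of Serpini1 was lost with edgeR (adjusted p 0.055), with DESeq2 (0.082), after quantile normalization (0.082), in a fit of only the 2 groups (0.054), without WT control library 4 (0.071) and without KO control library 4, where the difference was -0.41 (0.17). The acute-phase serpin Serpina3n, at 39.6 ± 8.65 and 43.1 ± 10.4, and Serping1, the inhibitor of complement C1 and kallikrein, at 14 ± 6.58 and 10.5 ± 4.21, were not called. Serpinb9e and Serpinb9g were not called either. They belong to a group of paralogues at least 90% identical in protein, so their low values are uncertain.

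Most serpin genes lie in arrays, and copies in the same array differed in opposite directions. On chromosome 12, 23 serpins lie between 103614786 and 104414329 (GRCm38, GENCODE vM21), from Serpina10 to Serpina3n. Of the 9 tested there, 6 were higher and 2 lower in KO control cells, where 37.8% and 39.3% of all tested genes were. On chromosome 13, 16 lie between 32842092 and 34002794, from Serpinb1a to Serpinb6a, and of the 9 tested 2 were higher and 4 lower, against the same shares. Of the 11 on chromosome 1 between 106861173 and 107610484, only Serpinb8 passed the filter.

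**Figure D4:**
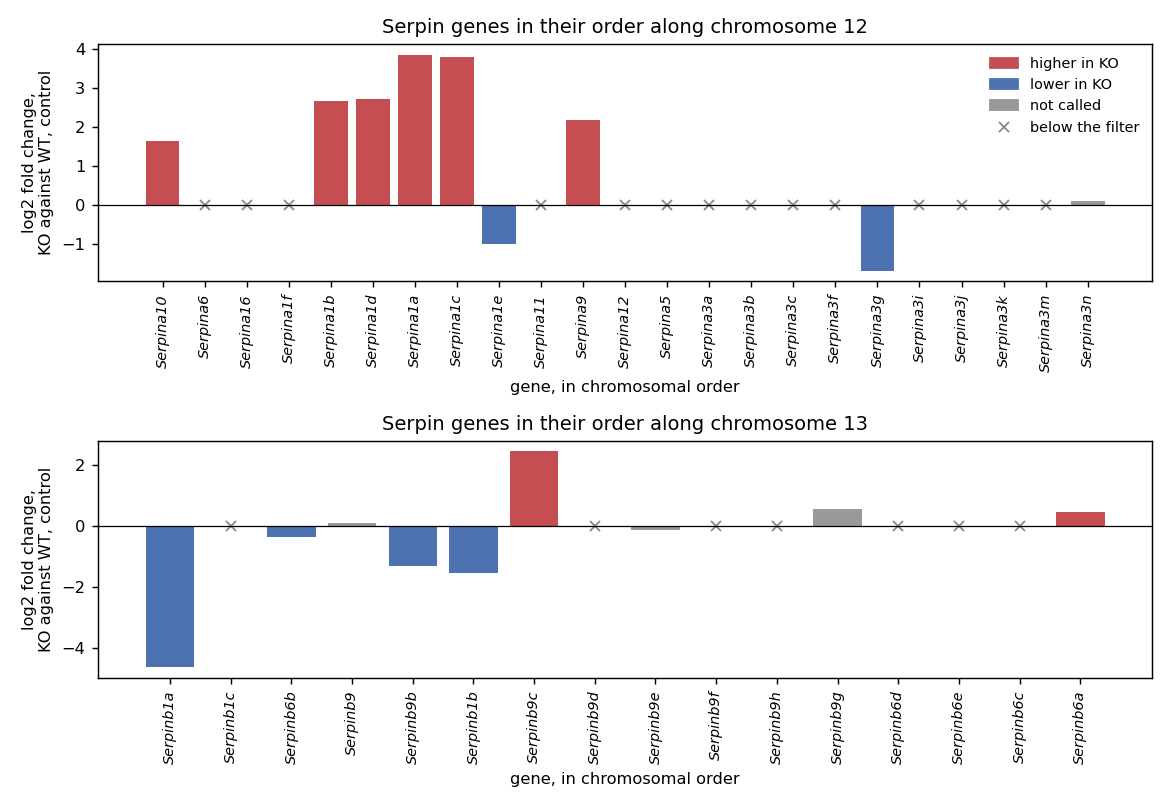
Log2 fold change of KO against WT in control cells for the serpins of the chromosome 12 array (above) and the chromosome 13 array (below), in chromosomal order; crosses mark genes below the filter, which have no bar. Serpina1b, Serpina1d, Serpina1a and Serpina1c stand next to each other and higher in KO, beside Serpina1e, which is lower.

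Proteases and other genes that act with serpins were counted from lists, to be read against the 37.8% of all tested genes that were higher and the 39.3% that were lower in KO control cells. All 9 tested cathepsins were higher in KO control cells, with a median log2 fold change of 0.53, and Ctsh and Ctsf, lysosomal cysteine proteases, rose by 3.18 ± 0.06 and 3.06 ± 0.08. All 6 tested complement proteases were higher (median 2.77), Cfi by 8.97 ± 0.18 and Cfb by 4.70 ± 0.05. Of 17 cofactors and clearance receptors, 9 were higher and 6 lower (median 0.15), with the matrix and plasma protein vitronectin (Vtn) at 0.54 ± 1.08 in WT and 58.7 ± 11.3 in KO and thrombomodulin (Thbd), the thrombin receptor, higher by 2.31 ± 0.04. Of 9 tested membrane and trypsin-like proteases, 4 were higher and 5 lower. Of 5 tested plasminogen and coagulation proteases, 3 were higher and 2 lower. The lower were Plau (urokinase) by -2.33 ± 0.07 and Plat (tissue-type activator) by -0.94 ± 0.04. Among the higher, F11 and F2 had means of 0 and 0.26 in WT control and 15.7 and 9.78 in KO control libraries. They passed the filter through KO libraries only, as other listed genes can, so the list counts describe tested genes only. Among 10 granule proteases and inflammatory caspases only 3 passed the filter, of which 2 were lower. Inhibitors outside the serpin family split as well: 10 of 16 were higher and 6 lower (median 0.27), with Itih2, an inter-alpha-trypsin inhibitor heavy chain, higher by 6.47 ± 0.09 and the metalloprotease inhibitor Timp3 lower by -3.72 ± 0.10. The median over all tested genes was -0.01.

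Transcription factors known to act on liver serpin genes were mostly higher, 11 of 13 in KO control cells with the other 2 lower, where 37.8% of all tested genes were higher and 39.3% lower. Their median log2 fold change was 0.98, against -0.01 over all tested genes. Prox1 rose by 3.97 ± 0.06 and Foxa3 by 3.66 ± 0.13, while Foxa1 was lower by -1.12 ± 0.10 and Cebpd by -0.47 ± 0.11.

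The second comparison set KO against WT cells after palmitate. It uses other libraries than the control comparison, but both came from the same fit to 16 libraries and share its estimate of spread. It called 23 of the 28 serpins, where 77.1% of all tested genes were called, and 12 were higher and 11 lower, where 38.1% and 39% of all genes were. The groups did not overlap for 22 of the 28, against 71.9% of all genes. With a change of at least 2-fold, 18 were called, where 22.3% of all genes were. Serpina1a differed by 3.54 ± 0.04, Serpinh1 by -3.22 ± 0.03, Serpinf1 by -4.38 ± 0.08 and Serpind1 by 6.30 ± 0.25. The Serpina1 sum was 2438 ± 163 in WT and 18317 ± 561 in KO palmitate libraries, 7.52-fold higher (exact permutation p 0.0286, two-sided). Serpinb8 was lower in KO cells here, at 404 ± 37.1 in WT and 332 ± 19.6 in KO (-0.28 ± 0.07, limma, adjusted p 0.00087), and Serping1, at 16.1 ± 2.86 and 8.57 ± 4.28, was lower by -0.94 ± 0.38 (adjusted p 0.03). The call of Serping1 was lost after quantile normalization (adjusted p 0.10) and without WT palmitate library 1 or 2 or KO palmitate library 2 or 4 (limma, adjusted p 0.061 to 0.12).

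The third comparison asked how serpin mRNA differed between WT cells given palmitate and WT controls, whose medium is not stated. Serpinb9b and Serpinb6b fell and Serpinb8, Serpina7, Serpinf2 and Serpina1a rose. Of the 28, 10 were called, where 37.6% of all tested genes were, and 4 were higher and 6 lower, where 17.7% and 19.9% of all genes were. The groups did not overlap for 7, against 37.1% of all genes, and 1 serpin changed by at least 2-fold, where 0.702% of all genes did. That 1 was Serpinf2, at 5.96 ± 2.77 in control and 13.6 ± 3.92 in palmitate libraries, a log2 fold change of 1.11 ± 0.25 (limma, adjusted p 0.00089) on 25 and 65 reads. Its groups overlapped, with WT palmitate library 3, at 7.74, within the WT control range of 2.73 to 9.39. With a pseudocount of 8 in place of 1 the log2 fold change was 0.63.

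Serpinb9b had 2575, 2491, 2538 and 2261 normalized counts in WT control and 1688, 1486, 1503 and 1495 in WT palmitate libraries. In KO cells it had 1029.7, 1066, 968 and 909 in control and 751, 563, 575 and 569 in palmitate libraries. Palmitate libraries lay below control libraries in both genotypes. The log2 fold changes were -0.68 ± 0.09 in WT (limma, adjusted p 1.9e-05) and -0.70 ± 0.09 in KO (adjusted p 1.2e-05), and they differed by -0.02 ± 0.12. Serpinb6b fell by 0.34 ± 0.04 on the log2 scale in WT and by 0.38 ± 0.04 in KO, from 3457 ± 101 to 2732 ± 174 and from 2687 ± 95.4 to 2058 ± 78.2.

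The protease Plau fell in both genotypes, by 1.02 ± 0.07 in WT and 1.04 ± 0.07 in KO on the log2 scale, while Plat rose by 0.24 ± 0.04 and 0.49 ± 0.04.

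**Figure D5:**
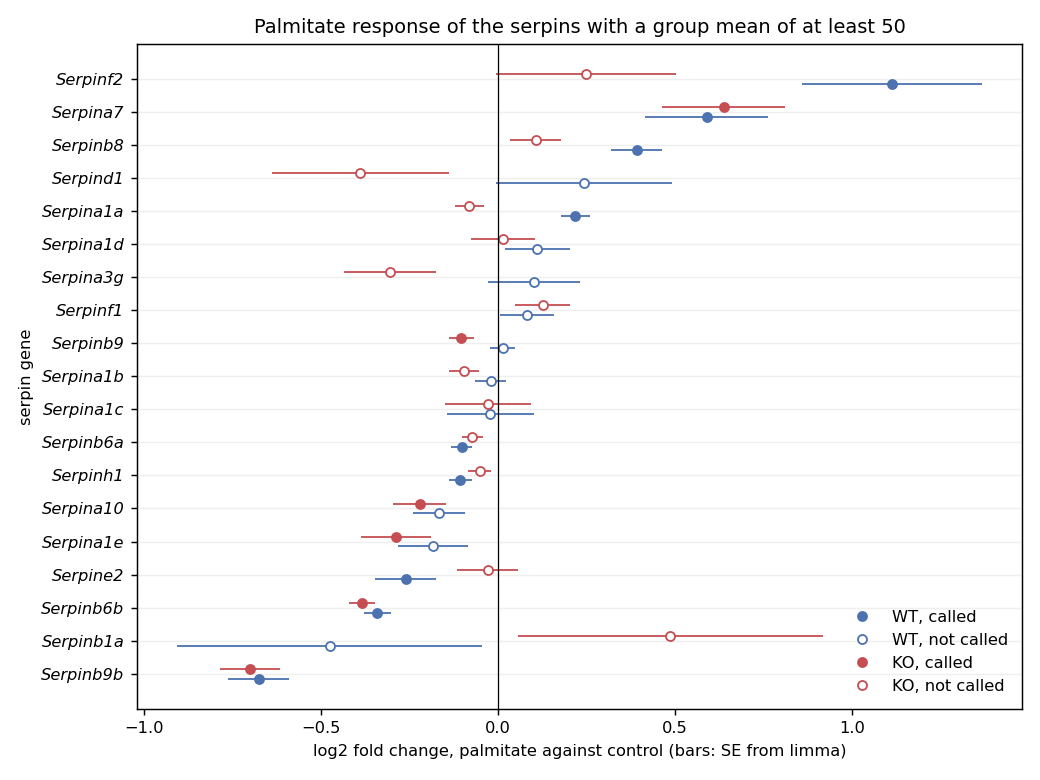
Log2 fold change of palmitate against control with its SE from limma in WT (blue) and KO (red) cells for 19 of the 20 serpins with a group mean of at least 50; filled points were called at an adjusted p under 0.05. Serpinb9b lies at -0.68 and -0.70, and Serpinf2 at 1.11 in WT.

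Rises in WT cells were small for the other serpins. Serpinb8 went from 308 ± 30.2 to 404 ± 37.1 (log2 fold change 0.39 ± 0.07), with every palmitate library above every control library. Serpina7 went from 25.5 ± 2.15 to 39.7 ± 9.2 (0.59 ± 0.17), where 1 palmitate library, at 26.4, lay within the control range, and Serpina1a from 615 ± 8.23 to 718 ± 62.1 (0.22 ± 0.04). Smaller falls were called for Serpine2 (-0.26 ± 0.09), Serpinh1 (-0.11 ± 0.03) and Serpinb6a (-0.10 ± 0.03). The last 2 calls depended on the scaling, with -0.06 for both after rescaling to the same total and -0.02 and -0.04 after quantile normalization, none of them called, and Serpinh1 was also not called without WT control library 1 (adjusted p 0.053). The call of Serpine2 was lost in a fit of only the 2 groups (adjusted p 0.051), without WT palmitate library 2 (-0.17, adjusted p 0.11) and without WT palmitate library 3 or WT control library 3.

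The fourth comparison asked the same in KO cells. It called 7 of the 28, where 39.1% of all tested genes were called, and 2 were higher and 5 lower, where 18.7% and 20.4% of all genes were. The groups did not overlap for 6, against 33.8% of all genes. All 7 changes stayed under 2-fold, which 1.04% of all genes were called past. Serpina7 read 61.6, 52.2, 65.8 and 73.1 in KO control and 111, 104, 107 and 75.2 in KO palmitate libraries, without overlap, a log2 fold change of 0.64 ± 0.17 (limma, adjusted p 0.0041). Serpini1 rose by 0.85 ± 0.30 (adjusted p 0.023) from 11.9 ± 6.99 to 20.2 ± 4.64, on 40 and 78 reads. This call was lost with DESeq2 (adjusted p 0.065), without KO palmitate library 3 (0.078) and without KO control library 4 (0.14), where the change was 0.52. Besides Serpinb9b and Serpinb6b, falls were called for Serpina10 (-0.22 ± 0.07), Serpina1e (-0.29 ± 0.10) and Serpinb9 (-0.10 ± 0.04). The calls of Serpina1e and Serpinb9 were lost without KO control library 1 or 3 or KO palmitate library 2 or 4, and that of Serpina10 without KO palmitate library 3. On the recovered reads Serpina1e was also not called by edgeR (adjusted p 0.065) or DESeq2 (0.053), nor was Serpinb9 after quantile normalization (limma, adjusted p 0.053). KO palmitate library 1 stood apart from the other libraries of its group, with a chi-square per gene of 4.90 to 5.47 against each of them and 2.17 to 2.79 among them. All other pairs within any of the 4 groups ran from 1.55 to 4.82, so its distances were only slightly beyond the highest of these. Without KO palmitate library 1, 9 serpins were called, 2 higher and 7 lower.

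Secreted serpins fold in the endoplasmic reticulum, and misfolded alpha-1-antitrypsin is cleared from it by degradation. Of 17 genes for this export and degradation, 16 rose with palmitate in KO cells and 1 was not called (median log2 fold change 0.27, against 0.00 over all tested genes), where 18.7% of all genes rose and 20.4% fell. In WT cells 9 rose and 2 fell (median 0.07, against 0.01), where 17.7% and 19.9% of all genes did. Counts of calls do not compare the genotypes, which the fifth comparison below does. There the response was called higher in KO than in WT cells for 9 of the 17 and lower for 0, where 4.19% and 5.71% of all genes were. Hspa5, the chaperone BiP, rose by 0.55 ± 0.03 in KO cells, and Xbp1 by 0.51 ± 0.04 in KO and 0.32 ± 0.04 in WT cells. The summed Serpina1 level went from 19310.0 ± 528 to 18317 ± 561 in KO cells (exact permutation p 0.0571, two-sided) and from 2387 ± 152 to 2438 ± 163 in WT cells (exact permutation p 0.657). Among liver factors Cebpa rose by 0.41 ± 0.12 in WT and 0.54 ± 0.12 in KO cells, and Cebpd fell by 0.60 ± 0.11 and 0.70 ± 0.11 on the log2 scale.

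The fifth comparison tested whether the palmitate response differed between the genotypes. It shares its libraries with the 4 comparisons above. Of the 28 serpins it called 1, where 9.9% of all tested genes were called, 4.19% higher and 5.71% lower. That was Serpina1a, whose response was lower in KO than in WT cells by -0.30 ± 0.06 (limma, adjusted p 0.0011). The gene had 806, 669, 680.2 and 715 in WT palmitate libraries, each above the WT control libraries at 607 to 622, and 8477, 8057, 8315 and 8548 in KO palmitate libraries, which overlapped the KO control libraries at 8453 to 9118. Since Serpina1a shares much of its transcript with its copies, the value is uncertain in the same way. For Serpinf2 the difference was -0.87 ± 0.36 (adjusted p 0.13) and for Serpinb8 -0.29 ± 0.10 (adjusted p 0.075), and neither passed.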

How the data were processed

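The authors deposited 1 table of normalized counts (a signal on a linear scale) for 55421 genes in 16 libraries. Per the labels' protocols, total RNA was extracted with a miRNeasy kit, ribosomal RNA was removed, and KAPA HyperPrep libraries were read on a HiSeq2000 in pairs of 76 bases; the protocol text also speaks of FFPE material and of low RNA quality. Cells were grown with 10% serum and treated in medium with 5% serum and 1% BSA, and the medium of the controls is not stated. STAR, RSEM, DESeq2 and limma are named, without roles or versions, per the submitters' processing notes; the genome build is not given in the sources used here.

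Every deposited value was a whole multiple of its library's step within 0.1 read, which gave the reads and a depth of 21553952 to 35693442 per library. The sources used here do not say whether these whole numbers were single reads, read pairs or rounded estimates. Values were tested as log2(value + 1) with limma 3.58.1 in R 4.3.3, over 15239 genes with at least 10 in at least 4 libraries: 4 group means fitted to 16 libraries, trend and robust empirical Bayes, two-sided, Benjamini-Hochberg within each of 5 comparisons, called at an adjusted p under 0.05. The script was tested on simulated data. The Serpina1 sum was compared with exact permutation tests. Alternatives were other pseudocounts, filters and scalings, edgeR 4.0.16 and DESeq2 1.42.0 on the recovered reads, a replicate block, fits of 2 groups and leaving out each library.

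All 62 identifiers were found in GENCODE vM21 (GRCm38), 61 with the same version, which gave coordinates and exonic lengths; longest reading frames gave protein identities. The members, lists and tests were chosen with earlier results of these data known. Values were given for each member with a group mean of at least 50, in ranges or means for the rest, and for up to 2 called genes of each list in each direction by the size of their change, of which some are printed. One serpin that is counted in the totals is not reported here.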

Additional observations from a re-analysis of the deposited data

Results flagged for a closer look

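Within 80 groups of 4 libraries (the 20 serpins with a mean of at least 50 in 4 groups), Dixon's test at the 95% level set a single library apart in 6, and chance does so in about 1 group in 20. Serpinb9b was highest in WT palmitate library 1, at 1688.08 against 1486 to 1503 in the others, and in KO palmitate library 1, at 750.84 against 563 to 575. Serpinb9 was highest in WT palmitate library 1, at 3109.84, and Serpind1 lowest there, at 2. Serpinf2 was lowest in WT palmitate library 3, at 7.74, and Serpinb1a in WT control library 3, at 61.68. A difference between the genotypes in the palmitate response was found for Serpina1a, -0.30 on the log2 scale with limma.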

How the results depend on the processing

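Under leave-one-out fits, the count of called serpins ranged from 21 to 23 for KO against WT in control, 20 to 23 after palmitate, 9 to 12 for palmitate in WT, 5 to 9 for palmitate in KO and 1 to 3 for the difference of responses. The last count was 2 after rescaling to the same total and with DESeq2, 2 without WT control library 1, WT palmitate library 1, WT palmitate library 3 or KO palmitate library 1, and 3 without WT control library 4; the cause was not tested. All other alternatives kept each of the 5 counts within 1.5 times its value. Over the 28 tested serpins and 5 comparisons, 63 values were called, of which 53 kept their direction and call under every alternative that gave a value, 10 lost the call under at least 1 and none reversed. Of 77 values not called, 18 were called under at least 1 alternative. Rescaling to the same total moved the share of higher genes among all called genes from 47.1% to 61.7% for palmitate in WT and from 42.3% to 30% for the difference of responses.

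The replicate block gave 23, 23, 10, 9 and 1 called serpins in the 5 comparisons. Libraries with the same number correlated at -0.111 to 0.0605 in their deviations from group means, none over 0.1 in 24 pairs, so the numbers were not taken to pair them. Low members such as Serpind1 and Serpinb1a rest on 13 and 9 reads in their lower group, which limits their fold changes.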
